A study of Rattus norvegicus with 20 samples.

Results

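The expression of 7 G protein-coupled receptor genes of islet secretion control was followed in cultured rat islets: Gipr, Glp1r, Gcgr, Ffar1, Drd2, Adra2a and Chrm3. The 7 genes were a set list, and each was represented by the probe set chosen by the highest mean log2 intensity over all 20 arrays, so overall level is part of the choice and is only described. The probe table named a probe set for 6 of the 7, out of 14217 genes in all. Ffar1, the free fatty acid receptor, has no probe set named in that table and is not analysed here. No filter on low values was applied, so all 6 genes entered every fit.

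Islets came from male Wistar rats aged 8 weeks and were cultured with 10% serum and 8 mM glucose. They received an adenovirus for Nr4a1, an adenovirus for Nr4a3 or an adenovirus for green fluorescent protein (GFP), each for 18 h, or stayed untreated, with 5 arrays per group. RNA was collected 48 h after the virus was added, and the treatment protocol in the labels names other viruses (beta-galactosidase and Nkx6-1) than the titles, which define the groups here. Both delivered genes code for transcription factors of the nuclear receptor family with no known hormone ligand. No source used here gives the promoter in each virus or the cells it entered, and all islet cell types were measured together.

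The probe set for Nr4a1 averaged 5.99 in the arrays labelled Nr4a1 and 6.07 in the GFP arrays (log2 intensity), and that for Nr4a3 averaged 5.82 in the arrays labelled Nr4a3, 6.07 in those labelled Nr4a1 and 5.63 in the GFP arrays. Of these, Nr4a3 in the arrays labelled Nr4a1 differed from GFP (log2 0.44, limma adjusted p = 0.00562). Whether the probes match the delivered sequence is not known from the sources used, and they settle neither the group names nor whether delivery worked. If the 2 NR4A labels were swapped, the results of both groups would swap with them. Nr4a3 replicate 2 stood apart, with a mean correlation across genes of 0.941 with the other arrays, against 0.982 to 0.989 for the other 19. Without it the shared estimate of spread was smaller, and 19.1% of all genes were called for Nr4a1 against GFP and 3.71% for Nr4a3 against GFP, where 8.71% and 1.93% were called with all arrays. The number of arrays limits the precision, and whether replicates came from different animals is not stated, so p-values measure the spread between these samples.

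Receptors of this kind pass a signal from outside the cell to heterotrimeric G proteins. In beta cells the incretin receptors Gipr and Glp1r and the glucagon receptor Gcgr act through Gs, raise cyclic AMP and amplify insulin release when glucose is high. Drd2, the dopamine D2 receptor, and Adra2a, the alpha-2A adrenergic receptor, act through Gi and Go, lower cyclic AMP and restrain secretion. Chrm3, the muscarinic acetylcholine receptor of the vagal input, acts through Gq and phospholipase C, which releases calcium from stores.

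The upstream DNA of the receptor that differed most between groups, Drd2, and of Gcgr, which differed in the opposite direction, is shown because the viruses carry transcription factors. The RefSeq promoter table for build GRCr8 held entries for 6 of the 7 genes, matched by symbol. Gipr had no entry. Each sequence is 250 bases that end just before the annotated start, read 5′ to 3′ on the plus strand, with capitals for GGGCGG or its reverse complement (the GC box). The Drd2 window is chr8:58605153-58605402 and the Gcgr window chr10:106306553-106306802, the first of 2 entries for Gcgr.

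Drd2: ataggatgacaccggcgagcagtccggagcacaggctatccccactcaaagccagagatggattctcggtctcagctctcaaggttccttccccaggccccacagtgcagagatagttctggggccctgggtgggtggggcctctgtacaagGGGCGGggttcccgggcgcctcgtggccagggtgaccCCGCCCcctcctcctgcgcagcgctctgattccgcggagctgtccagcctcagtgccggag

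Gcgr: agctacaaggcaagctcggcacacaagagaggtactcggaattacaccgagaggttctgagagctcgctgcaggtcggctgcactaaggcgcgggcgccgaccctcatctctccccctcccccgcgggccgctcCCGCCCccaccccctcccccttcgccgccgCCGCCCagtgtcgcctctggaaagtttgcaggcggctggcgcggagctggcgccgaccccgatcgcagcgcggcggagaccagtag

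Both windows are rich in G and C, at 66% for Drd2 and 70% for Gcgr, against a median of 51.2% over all 33469 windows of the table. Each holds 2 GC boxes, 1 at positions -98 to -93 and 1 on the other strand at -61 to -56 for Drd2, and both on the other strand for Gcgr. Of the receptor windows not shown, that of Glp1r holds 4 and that of Chrm3 1, and those of Adra2a, Ffar1 and the second Gcgr entry hold 0. Their G and C content runs from 52.4% for Ffar1 to 75.6% for Glp1r. A GC box, a motif chosen after these sequences were seen, was found in 30.5% of all windows. The letters AAAGGTCA, the site bound by an NR4A monomer, were searched on both strands and were in 0 of the receptor windows and in 1.24% of all windows. The cyclic AMP response element TGACGTCA, which reads the same on both strands, was in 0 of the receptor windows and in 1.59% of all. These are matches of letters within 250 bases and say nothing of binding.

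A linear model with limma across all genes showed that 4 of the 6 receptor genes differed between the 4 groups at an adjusted p under 0.05, where 7.27% of all genes did. They were Drd2 (adjusted p = 3.54e-06), Gipr (0.000354), Gcgr (0.0153) and Adra2a (0.0239), while Glp1r (0.383) and Chrm3 (0.730) did not pass. In the Nr4a1 arrays 3 of 6 were called against GFP, where 8.71% of all genes were: Drd2 rose, and Gipr and Gcgr fell. In the Nr4a3 arrays 1 of 6 was called against GFP, Gipr, which fell, where 1.93% of all genes were called. Both comparisons share the same 5 GFP arrays. Between the Nr4a1 and Nr4a3 arrays 1 of 6 was called, Drd2, against 0.633% of all genes. The list was proposed with earlier results of these arrays known, so these counts are not independent evidence.

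**Figure D1:**
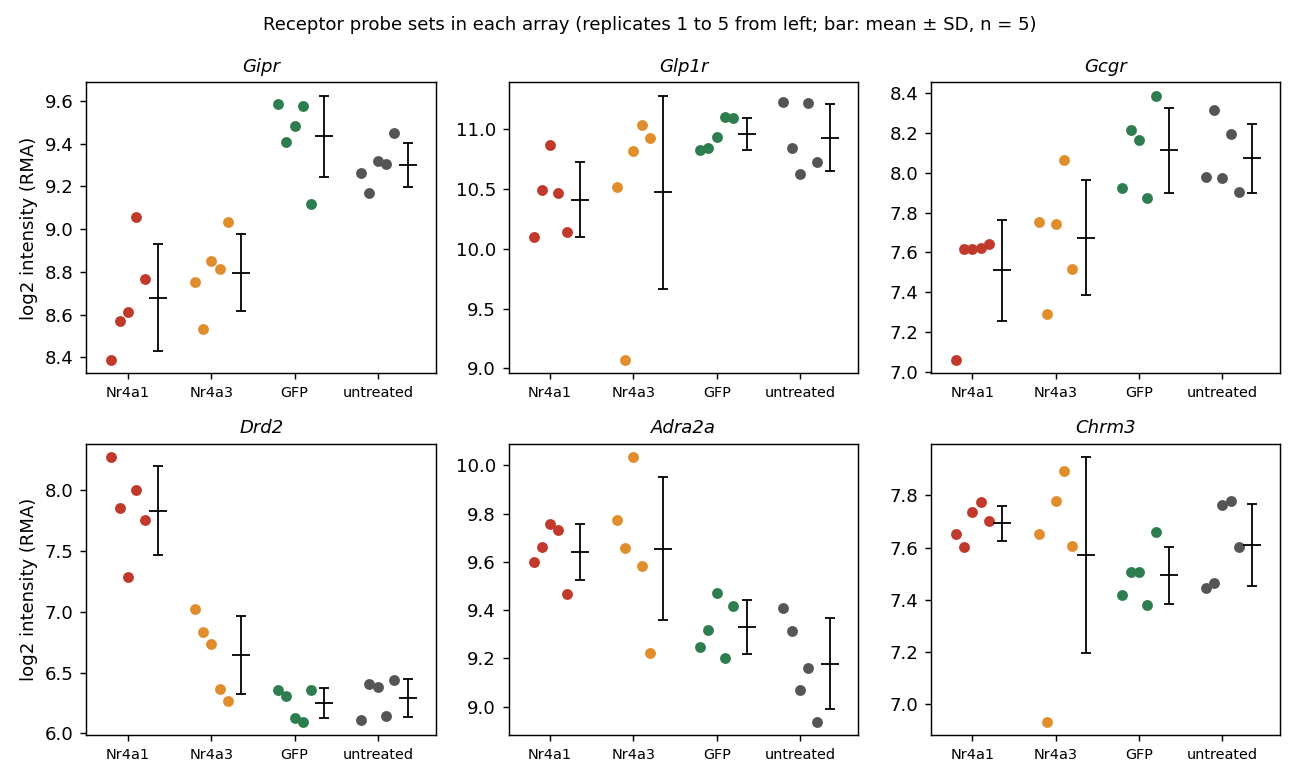
Log2 RMA intensity (vertical axis) of the brightest probe set of 6 receptor genes in each array, by group (horizontal axis), replicates 1 to 5 from left to right, with a black bar for the mean ± SD (n = 5). Drd2 in the 5 Nr4a1 arrays (7.28 to 8.27) lies above all other arrays, Gipr is lower in all 10 NR4A arrays than in any GFP or untreated array, and Nr4a3 replicate 2 is the lowest array for Glp1r and Chrm3.

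**Figure D2:**
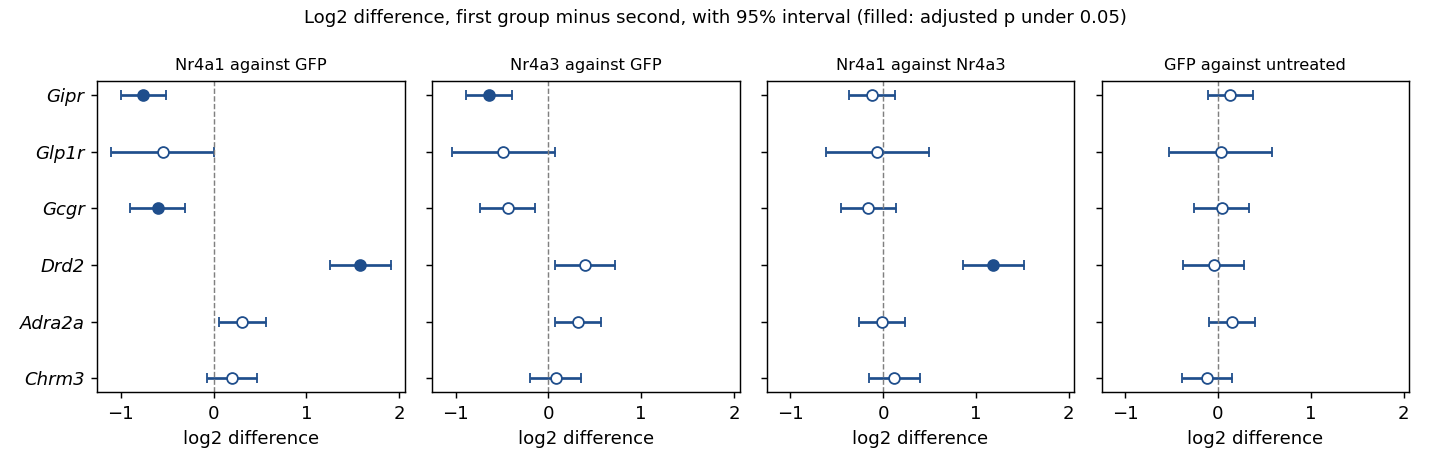
Log2 difference (horizontal axis, first group minus second) with its 95% interval for 6 receptor genes in 4 comparisons, with filled points for an adjusted p under 0.05 over all genes. The Drd2 interval runs from 1.26 to 1.91 for Nr4a1 against GFP, and the 6 intervals for GFP against untreated all include 0.

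Among the receptors that raise cyclic AMP, Gipr, the receptor for the incretin GIP from the gut, was lower with both NR4A viruses. Its log2 intensity was 8.39, 8.57, 8.61, 9.06 and 8.77 in Nr4a1 replicates 1 to 5 and 8.75, 8.53, 8.85, 8.82 and 9.03 in Nr4a3 replicates 1 to 5. It was 9.59, 9.41, 9.48, 9.58 and 9.12 in the GFP arrays and 9.27, 9.17, 9.32, 9.30 and 9.45 in the untreated arrays, again in replicate order. The 10 NR4A arrays did not overlap with the 10 control arrays, and the closest pair was Nr4a1 replicate 4 and GFP replicate 5. Gipr fell 1.69-fold in the Nr4a1 arrays against GFP (log2 -0.76 ± 0.12, SE, n = 5 per group, limma adjusted p = 0.00032). In the Nr4a3 arrays it fell 1.56-fold against GFP (log2 -0.64 ± 0.12, limma adjusted p = 0.00563). Against untreated islets the log2 differences were -0.62 for Nr4a1 (limma adjusted p = 0.002) and -0.50 for Nr4a3 (0.0322). The Nr4a1 and Nr4a3 arrays differed by -0.12 with a 95% interval of -0.36 to 0.13.

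Gcgr, the receptor through which glucagon from alpha cells reaches beta cells, was 7.06, 7.62, 7.62, 7.62 and 7.64 (log2) in the Nr4a1 arrays and 7.75, 7.29, 7.74, 8.06 and 7.52 in the Nr4a3 arrays. It was 7.92, 8.21, 8.17, 7.87 and 8.39 in the GFP arrays and 7.98, 8.31, 7.97, 8.19 and 7.90 in the untreated arrays. All Nr4a1 arrays lay below all GFP and untreated arrays, with replicate 1 well below the other 4, whereas 1 Nr4a3 array lay within the range of GFP. Gcgr fell 1.52-fold in the Nr4a1 arrays against GFP (log2 -0.60 ± 0.14, SE, n = 5 per group, limma adjusted p = 0.0102, and -0.49 with 0.039 without Nr4a1 replicate 1). In the Nr4a3 arrays it differed from GFP by -0.44 ± 0.14 (limma adjusted p = 0.145). That difference was -0.54 without Nr4a3 replicate 4 and then passed (limma adjusted p = 0.045). The Nr4a1 and Nr4a3 arrays differed by -0.16, with a 95% interval of -0.46 to 0.14.

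Glp1r, the receptor for glucagon-like peptide 1 and the target of incretin drugs, did not pass in any of the 4 comparisons. Its log2 intensity was 10.10, 10.49, 10.87, 10.46 and 10.14 in the Nr4a1 arrays and 10.51, 9.07, 10.82, 11.03 and 10.92 in the Nr4a3 arrays. The GFP arrays had 10.82, 10.84, 10.94, 11.10 and 11.09 and the untreated arrays 11.22, 10.84, 10.63, 11.22 and 10.72. In the Nr4a1 group 4 arrays lay below every GFP array and replicate 3 lay among them, while in the Nr4a3 group the low mean came mostly from replicate 2. The Nr4a1 arrays differed from GFP by a log2 of -0.55 ± 0.27 (SE, n = 5 per group, limma adjusted p = 0.260), with a 95% interval of -1.10 to 0.0086. Without Nr4a3 replicate 2, which enters only through the shared estimate of spread, the same difference passed with a limma adjusted p of 0.0116, in a fit where 19.1% of all genes passed. For Nr4a3 against GFP the difference was -0.49 with all arrays (limma adjusted p = 0.472) and -0.14 without Nr4a3 replicate 2 (0.751).

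Among the receptors that lower cyclic AMP, Drd2, which answers to dopamine released within the islet, was the one that differed most. Its log2 intensity was 8.27, 7.85, 7.28, 8.00 and 7.75 in the Nr4a1 arrays and 7.02, 6.83, 6.74, 6.36 and 6.26 in the Nr4a3 arrays. It was 6.35, 6.31, 6.13, 6.10 and 6.35 in the GFP arrays and 6.11, 6.40, 6.38, 6.14 and 6.44 in the untreated arrays. On the linear scale this was 156 to 309 in the Nr4a1 arrays, 76.8 to 130 in the Nr4a3 arrays, 68.4 to 81.8 in the GFP arrays and 68.9 to 86.5 in the untreated arrays. Every Nr4a1 array was above every other array, and 3 of the 5 Nr4a3 arrays were above all 10 control arrays. Drd2 rose 3.0-fold in the Nr4a1 arrays against GFP (log2 1.58 ± 0.16, SE, n = 5 per group, limma adjusted p = 2.07e-06). In the Nr4a3 arrays it differed from GFP by 0.40 ± 0.16 (limma adjusted p = 0.267), with a 95% interval of 0.07 to 0.72 before adjustment. The direct test of both viruses gave a log2 of 1.19 ± 0.16 for Nr4a1 over Nr4a3 (limma adjusted p = 0.000715). In a fit to only those 10 arrays the same difference had a limma adjusted p of 0.0832. A single probe set stands for the gene, so the long and short forms of the receptor were not told apart.

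Adra2a, through which adrenaline and noradrenaline block insulin release, was 9.60, 9.66, 9.75, 9.73 and 9.47 (log2) in the Nr4a1 arrays and 9.77, 9.66, 10.03, 9.58 and 9.22 in the Nr4a3 arrays. It was 9.25, 9.32, 9.47, 9.20 and 9.42 in the GFP arrays and 9.41, 9.31, 9.07, 9.16 and 8.94 in the untreated arrays. In each NR4A group 4 of 5 arrays lay above all 10 control arrays, and replicate 5 was the lowest of both groups. Against GFP the log2 differences were 0.31 ± 0.12 for Nr4a1 (limma adjusted p = 0.128) and 0.32 ± 0.12 for Nr4a3 (0.225), and neither passed. Without Nr4a3 replicate 5 the Nr4a3 difference was 0.43 and passed (limma adjusted p = 0.0442). Against untreated islets Adra2a rose 1.38-fold in the Nr4a1 arrays (log2 0.47 ± 0.12, limma adjusted p = 0.0187), and the Nr4a3 arrays differed by 0.48 ± 0.12 (0.0501). The dimmer of its 2 probe sets differed from GFP by 0.21 for Nr4a1 and 0.07 for Nr4a3, the second being 0.24 without Nr4a3 replicate 2. Over the 4 groups Adra2a lost its call without untreated replicate 3, 4 or 5, which left 3 receptor genes called in each case.

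Chrm3 was 7.65, 7.60, 7.74, 7.77 and 7.70 (log2) in the Nr4a1 arrays and 7.65, 6.93, 7.78, 7.89 and 7.61 in the Nr4a3 arrays. It was 7.42, 7.51, 7.51, 7.38 and 7.66 in the GFP arrays and 7.44, 7.46, 7.76, 7.78 and 7.60 in the untreated arrays. The groups overlapped, apart from the low value of Nr4a3 replicate 2. Against GFP the differences were 0.20 for Nr4a1 (95% interval -0.07 to 0.47) and 0.08 for Nr4a3 (-0.19 to 0.35), and limma adjusted p was 0.458 and 0.819. Without Nr4a3 replicate 2 the Nr4a3 difference was 0.24 (limma adjusted p = 0.122). The dimmer of the 2 Chrm3 probe sets differed from GFP by 0.02 for Nr4a1 and 0.19 for Nr4a3, and neither passed. The second of these was -0.03 without Nr4a3 replicate 2.

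Ranges of the Nr4a1 and GFP arrays did not overlap in 3 of 6 receptor genes (Gipr, Gcgr and Drd2), where 16.2% of all genes did not. For Nr4a3 and GFP this held for 1 of 6 (Gipr), against 4.63% of all genes, and for Nr4a1 and Nr4a3 for 1 of 6 (Drd2), against 2.66%. With the untreated islets as control, 4 of 6 receptor genes were called for Nr4a1 (Gipr, Gcgr, Drd2 and Adra2a), where 7.94% of all genes were, and 1 of 6 for Nr4a3 (Gipr), where 1.5% were. GFP virus against untreated islets gave 0 of 6 calls and 0% of all genes with limma, and 412 genes but 0 of the 6 receptors had an unadjusted p under 0.05. The largest of these 6 differences was 0.15 for Adra2a, with a 95% interval of -0.10 to 0.40. None of the 6 receptor genes had GFP arrays apart from the untreated arrays, against 0.605% of all genes.

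Ordered from the highest mean to the lowest, Drd2 was 7.83 ± 0.36 in Nr4a1, 6.64 ± 0.32 in Nr4a3, 6.29 ± 0.16 in untreated and 6.25 ± 0.13 in GFP arrays (log2, SD, n = 5), and only the step between Nr4a1 and Nr4a3 passed the limma test. From the lowest to the highest, Gipr was 8.68 ± 0.25 in Nr4a1, 8.80 ± 0.18 in Nr4a3, 9.30 ± 0.10 in untreated and 9.43 ± 0.19 in GFP arrays, and only the step between Nr4a3 and untreated passed. For the other 4 genes no step between neighbours passed. Gcgr was 7.51 ± 0.25 in Nr4a1, 7.67 ± 0.29 in Nr4a3, 8.07 ± 0.17 in untreated and 8.11 ± 0.21 in GFP arrays, and Glp1r was 10.41 ± 0.31 in Nr4a1, 10.47 ± 0.81 in Nr4a3, 10.93 ± 0.28 in untreated and 10.96 ± 0.13 in GFP arrays. From the highest down, Adra2a was 9.65 ± 0.30 in Nr4a3, 9.64 ± 0.12 in Nr4a1, 9.33 ± 0.11 in GFP and 9.18 ± 0.19 in untreated arrays. Chrm3 was 7.69 ± 0.07 in Nr4a1, 7.61 ± 0.16 in untreated, 7.57 ± 0.37 in Nr4a3 and 7.49 ± 0.11 in GFP arrays. Levels were compared only within a probe set, since probe sets differ in brightness for reasons other than RNA amount.

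Genes that make, store and bind the ligands were looked at next. Of 25 measured ligand and transmitter enzyme genes, 2 were called in the Nr4a1 arrays against GFP, Ddc and Slc18a2, and both rose (8% against 8.71% of all genes). The list median was a log2 of -0.014, beside -0.0013 for all genes. Ddc, the decarboxylase that makes dopamine from L-DOPA, averaged 10.80 ± 0.29 in the Nr4a1 arrays, 10.48 ± 0.58 in the Nr4a3 arrays and 9.77 ± 0.11 in the GFP arrays (log2, SD, n = 5). It rose 2.04-fold in the Nr4a1 arrays against GFP (log2 1.03 ± 0.23, SE, limma adjusted p = 0.00659). Slc18a2, the vesicle transporter that loads dopamine into granules, averaged 6.94 ± 0.32 in the Nr4a1, 6.66 ± 0.34 in the Nr4a3 and 6.04 ± 0.26 in the GFP arrays and rose 1.87-fold with Nr4a1 (log2 0.90 ± 0.17, limma adjusted p = 0.00146). In the Nr4a3 arrays the differences were 0.71 for Ddc (limma adjusted p = 0.142) and 0.62 for Slc18a2 (0.0588). Ddc was 9.48 in Nr4a3 replicate 2 and 10.57 to 10.93 in the other 4 Nr4a3 arrays, and without that replicate it passed (log2 0.96, limma adjusted p = 0.00374). Slc18a2 passed without Nr4a1 replicate 2, Nr4a3 replicate 4 or GFP replicate 4 (limma adjusted p down to 0.0174). Th, the tyrosine hydroxylase that makes L-DOPA, did not pass for Nr4a1 (log2 0.24, and -0.02 without Nr4a1 replicate 2), nor did the other dopamine receptor genes Drd1 (-0.0022), Drd3 (0.0088), Drd4 (0.13) and Drd5 (-0.03). The glucagon gene Gcg, whose product feeds Gcgr and Glp1r, differed by -0.03 and the GIP gene Gip by 0.26.

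**Figure D3:**
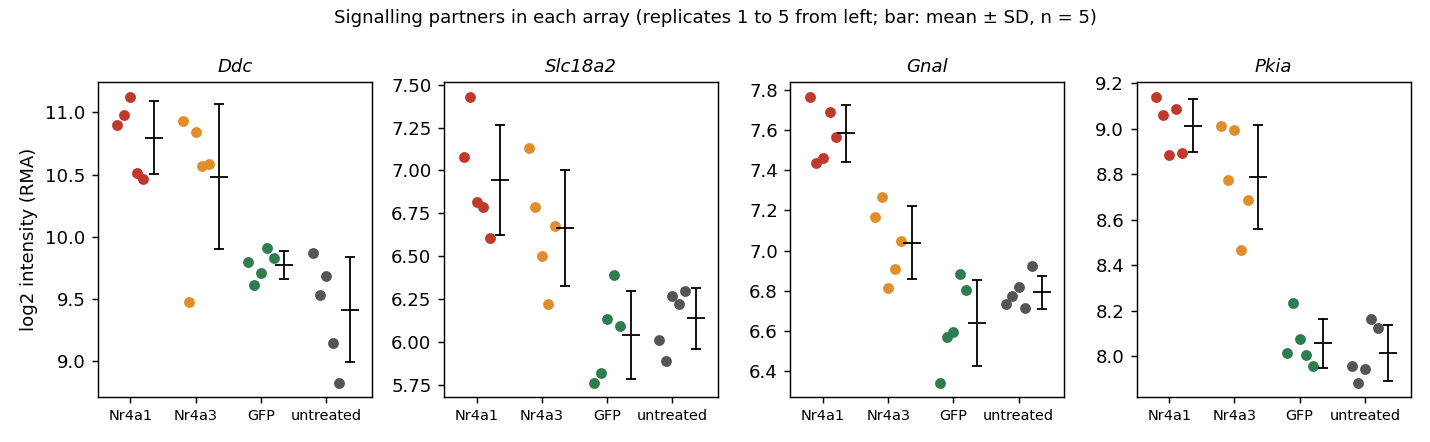
Log2 RMA intensity (vertical axis) of Ddc, Slc18a2, Gnal and Pkia in each array by group (horizontal axis), replicates 1 to 5 from left to right, with a black bar for the mean ± SD (n = 5). All 5 Nr4a1 arrays lie above all GFP arrays for each gene, and Pkia in the Nr4a3 arrays (8.47 to 9.01) also lies above GFP (7.96 to 8.23).

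Among the G proteins, 4 of 22 measured subunit genes were called in the Nr4a1 arrays, 2 up and 2 down (18.2% against 8.71% of all genes, with a list median of -0.05). Without Nr4a3 replicate 2, 5 were called, 2 up and 3 down (22.7% against 19.1% of all genes). Gnal is a Gs-like alpha subunit that couples odorant receptors and some dopamine receptors, though not Drd2, to cyclic AMP. It rose by a log2 of 0.95 ± 0.10 (SE, n = 5 per group, limma adjusted p = 6.74e-06). Against the Nr4a3 arrays, Gnal in the Nr4a1 arrays rose by 0.55 ± 0.10 (limma adjusted p = 0.0136). Without Nr4a1 replicate 1 or 4 or Nr4a3 replicate 4 that second call was lost, with limma adjusted p up to 0.0617, as it was in a fit to only the 10 arrays compared (0.125). For Nr4a3 against GFP, Gnal differed by 0.40 (limma adjusted p = 0.0508). That difference passed without Nr4a3 replicate 3 or 4 or GFP replicate 4 (limma adjusted p down to 0.0269). Gnai2, an inhibitory alpha subunit of the kind that Drd2 and Adra2a use, fell by 0.59 on the log2 scale in the Nr4a1 arrays (limma adjusted p = 0.00341). Gnas, the main Gs subunit, differed by -0.05. Its values, 14.54 to 14.87 (log2) over all arrays, lie near the highest of the arrays, where a change may hardly show. Gng3 and Gnaq, a gamma subunit and the Gq alpha subunit that Chrm3 uses, had log2 changes of 0.85 and -0.39. Gng3 lost its call without Nr4a1 replicate 1 or 4 and Gnaq without any of 12 single arrays (limma adjusted p up to 0.0693 and 0.138). Against untreated arrays Gnaq differed by -0.12 (limma adjusted p = 0.621). In the Nr4a3 arrays 0 of 22 subunit genes were called against GFP (0% against 1.93% of all genes). Without Nr4a3 replicate 2, 1 was called (4.55% against 3.71%), Gng3 (log2 0.74, limma adjusted p = 0.0329).

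In the cyclic AMP arm 2 of 29 measured genes were called in each NR4A group, 6.9% against 8.71% of all genes for Nr4a1 and 1.93% for Nr4a3, and they were the genes Pkia and Pde10a both times. Pkia, a peptide inhibitor of protein kinase A, averaged 9.01 ± 0.12 in the Nr4a1 arrays, 8.79 ± 0.23 in the Nr4a3 arrays, 8.06 ± 0.11 in the GFP arrays and 8.02 ± 0.12 in the untreated arrays (log2, SD, n = 5). It rose 1.94-fold in the Nr4a1 arrays (log2 0.96 ± 0.10, SE, limma adjusted p = 2.86e-06) and 1.66-fold in the Nr4a3 arrays (0.73 ± 0.10, adjusted p = 0.000383) against GFP. Pde10a, which breaks down cyclic nucleotides, fell by 0.49 on the log2 scale with Nr4a1 (limma adjusted p = 0.00388) and by 0.40 with Nr4a3 (0.047). The second call was lost without any 1 of 14 single arrays, with limma adjusted p up to 0.138, and against untreated arrays (log2 -0.29, 0.198). With the mean of all its probe sets Pkia rose by 0.48 with Nr4a3 (limma adjusted p = 0.002). Without Nr4a3 replicate 2, 3 of 29 were called for Nr4a1 (10.3% against 19.1% of all genes) and 2 for Nr4a3 (6.9% against 3.71%). Those of Nr4a3 were Pkia and Adcy6, an adenylyl cyclase (log2 0.38, limma adjusted p = 0.0142). In that fit Adcy6 rose more for Nr4a1 against GFP (log2 0.67, limma adjusted p = 7.31e-06). With all arrays Adcy6 passed for neither Nr4a1 (limma adjusted p = 0.124) nor Nr4a3 (0.994).

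Of 15 measured genes of the phospholipase C arm, 4 rose in the Nr4a1 arrays and 0 fell (26.7% against 8.71% of all genes), while the list median was -0.08. Without Nr4a3 replicate 2, 4 rose and 2 fell (40%, against 19.1% of all genes), the 2 being the calcium release channel gene Itpr3 and the protein kinase C gene Prkce. Prkcb, a calcium-dependent protein kinase C, rose by 0.87 ± 0.19 and Dgka, a kinase that removes diacylglycerol, by 0.61 ± 0.12 (log2 ± SE, n = 5 per group, limma adjusted p = 0.00649 and 0.0032). Against the Nr4a3 arrays, Prkcb in the Nr4a1 arrays rose by 0.94 ± 0.19 (limma adjusted p = 0.0268, lost without Nr4a1 replicate 1 or 4 or Nr4a3 replicate 3 or 4 and in a fit to only the 10 arrays compared, up to 0.106). With the mean of all Prkcb probe sets the change was 0.45 against GFP (limma adjusted p = 0.0153) and 0.46 against Nr4a3 (0.0809), so its size differed between probe sets. Rasgrp3 and Itpr1, a diacylglycerol-regulated exchange factor and a calcium release channel, had changes of 0.59 and 0.50, and each lost its call without any of 7 single arrays (limma adjusted p up to 0.0986 and 0.110). Of 20 genes that regulate receptors (arrestins, receptor kinases, regulators of G protein signalling and receptor activity-modifying proteins), 1 was called (5% against 8.71% of all genes), the regulator Rgs7, at 0.38. With that array left out, 1 rose and 3 fell (20% against 19.1%). The Rgs7 call was lost without any of 15 single arrays (limma adjusted p up to 0.119).

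Of 59 other receptor genes of islets, 5 were called in the Nr4a1 arrays, 1 up and 4 down (8.47% against 8.71% of all genes, with a list median of -0.02), and 0 in the Nr4a3 arrays. Without Nr4a3 replicate 2 the counts were 8 for Nr4a1 (13.6% against 19.1% of all genes) and 2 for Nr4a3 (3.39% against 3.71%). Those of Nr4a3 were Gprc5b (log2 0.51, limma adjusted p = 0.0228) and S1pr1 (-0.70, 0.0309). Gprc5b, an orphan receptor of islets, averaged 10.22 ± 0.23 in the Nr4a1 arrays, 9.84 ± 0.30 in the Nr4a3 arrays and 9.44 ± 0.07 in the GFP arrays (log2, SD, n = 5). It rose by 0.78 ± 0.13 (SE, limma adjusted p = 0.000793). The somatostatin receptor gene Sstr3 (-0.47), the sphingosine phosphate receptor gene S1pr1 of endothelium (-0.80), the calcium-sensing receptor gene Casr (-0.54) and the neuropeptide Y receptor gene Npy1r (-0.53) fell. Sstr3 lost its call without Nr4a1 replicate 1 (limma adjusted p = 0.0522) and against untreated arrays (log2 -0.30, 0.139). S1pr1 lost it with the mean of its probe sets (log2 -0.44, limma adjusted p = 0.303). Calls were also lost for S1pr1 without GFP replicates 1 or 4 or Nr4a1 replicate 2 (up to 0.0562), for Casr without GFP replicates 1 or 4 or Nr4a1 replicates 1, 2 or 4 (up to 0.0762) and for Npy1r without any of 13 single arrays (up to 0.154). Over all 170 measured partner and receptor genes of these lists, 18 were called for Nr4a1 (10.6%, 11 up and 7 down), 2 for Nr4a3 (1.18%) and 0 for GFP against untreated, where 8.71%, 1.93% and 0% of all genes were. With that array left out, 28 were called for Nr4a1 (16.5% against 19.1% of all genes) and 7 for Nr4a3 (4.12% against 3.71%).

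Markers of islet and other cell types moved with these results. The 14 acinar cell genes averaged 9.88 to 11.13 over the Nr4a1 arrays, 8.91 to 9.62 over the Nr4a3 arrays, 7.26 to 9.50 over the GFP arrays and 7.32 to 10.40 over the untreated arrays (log2), and 12 of 14 rose in the Nr4a1 arrays against GFP. Untreated replicate 5, at 10.40, was the only control array within the acinar range of the Nr4a1 arrays. It had Drd2 at 6.44, Gipr at 9.45 and Gcgr at 7.90. A single array cannot show how these genes go with acinar content. The 7 measured beta cell genes (Ins1, Ins2, Iapp, Slc2a2, Mafa, Pdx1 and Nkx6-1) averaged 12.31 to 12.77 over the Nr4a1 arrays, 12.20 to 12.85 over the Nr4a3 arrays, 12.77 to 12.91 over the GFP arrays and 12.78 to 13.01 over the untreated arrays. Of them 3 fell in the Nr4a1 arrays against GFP and 0 were called in the Nr4a3 arrays. The 3 were Pdx1 (log2 -0.69, limma adjusted p = 0.00141), Nkx6-1 (-0.42, 0.0296) and Slc2a2 (-0.56, 0.0432). The 6 endothelial genes averaged 7.40 to 7.94 over the Nr4a1, 7.67 to 8.00 over the Nr4a3, 8.09 to 8.82 over the GFP and 8.35 to 9.02 over the untreated arrays, and 5 of 6 fell in the Nr4a1 arrays and 2 of 6 in the Nr4a3 arrays against GFP. None of the 4 alpha cell, 3 delta cell, 4 duct cell, 7 stellate cell and 6 macrophage genes was called in these 2 comparisons. Of all genes, 8.71% were called for Nr4a1 against GFP and 1.93% for Nr4a3 against GFP. In whole islets fewer cells of a type and less RNA per cell cannot be told apart, and the part of the shifted markers in the receptor results was not tested.

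The receptors differed in how they went with the beta cell markers within groups. Over the 19 arrays without Nr4a3 replicate 2, deviations from the group means had a Pearson r with the beta cell mean of 0.87 for Glp1r, 0.339 for Gcgr, 0.062 for Gipr, 0.383 for Adra2a, 0.081 for Chrm3 and -0.661 for Drd2, as descriptions of arrays that share RNA quality and cell makeup. With the acinar mean, r was 0.235 for Gipr, -0.447 for Glp1r, -0.497 for Gcgr and 0.29 for Drd2. With the endothelial mean it was 0.468 for Gipr, 0.0453 for Glp1r, -0.255 for Gcgr and -0.159 for Drd2. Nr4a3 replicate 4 had a beta cell mean of 12.85, within the GFP range, with Glp1r at 11.03, also within the GFP range, and Gipr at 8.82, below every GFP array. Nr4a1 replicate 3, at 12.77 for the beta cell mean, had Glp1r at 10.87, Gipr at 8.61 and Drd2 at 7.28. For the endothelial mean no NR4A array reached the control range, the same split as for Gipr. The highest NR4A value was 8.00, in Nr4a3 replicate 1, and the lowest control value 8.09, in GFP replicate 5. GFP replicate 5 was also the lowest control array for Gipr (9.12). The part of either marker mean in the Gipr result was not tested. Among the receptors themselves the strongest r in either direction was -0.77, between Glp1r and Drd2, and that of Gipr with Glp1r was 0.02.

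**Figure D4:**
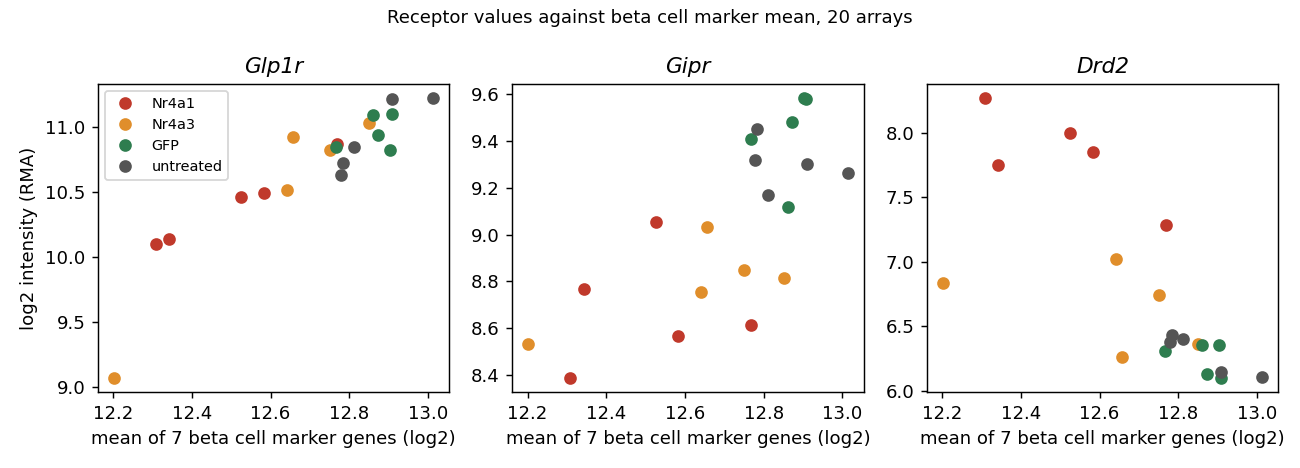
Log2 RMA intensity of Glp1r, Gipr and Drd2 (vertical axes) against the mean log2 value of 7 beta cell marker genes (horizontal axis) in 20 arrays coloured by group. Glp1r is higher in arrays with a higher marker mean, and most NR4A arrays lie left of the control arrays. Nr4a3 replicate 4 (12.85) lies within the marker range of the GFP arrays, and Nr4a1 replicate 3 (12.768) at its lower end (12.767). Their Gipr values are 8.82 and 8.61. For the endothelial mean, not drawn here, no NR4A array reached the control range. The part of either marker mean in the Gipr result was not tested.

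The genes whose deviations were most like those of each receptor over the same 19 arrays were named by the highest r. They were Plekhh1 (r = 0.838) and Zc3h4 (0.82) for Gipr, Igf2 (0.904) and Nsg2 (0.898) for Glp1r, and Pkdcc (0.859) and Sstr3 (0.848) for Gcgr. For Drd2 they were Kcnd2 (0.866) and Slit3 (0.841), for Adra2a Ing2 (0.872) and Emc1 (0.859), and for Chrm3 Sh2b1 (0.815) and Dmac2l (0.809). With Nr4a3 replicate 2 included, r was 0.449 for Plekhh1, 0.569 for Kcnd2 and 0.0879 for Dmac2l.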

How the data were processed

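Total RNA of whole islets was labelled with biotin and hybridised to 20 Affymetrix rat arrays, 1 per sample. The deposited values are intensity values on a linear scale that the authors made with robust multi-array average (RMA), per the submitters' processing notes (no version is named). RMA removes background, puts all arrays on the same distribution and combines the probes of a set. Values were log2-transformed with no further scaling. Of 31099 probe sets, 20832 have 1 gene symbol in the array's probe table, 436 several and 9831 none. The 57 control probe sets were left out, and the brightest probe set over all arrays stood for each of 14217 genes. Detection p-values and scan batches were not used here, so no value is called above or below background.

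With limma 3.58.1 (R 4.3.3), a model with a mean for each group was fitted to the 20 arrays together (16 residual and 3.64 prior degrees of freedom), with moderated two-sided tests and Benjamini-Hochberg adjustment over all genes of a comparison, called at an adjusted p under 0.05. The fit was tested on simulated data. Members, gene lists and markers were chosen with earlier results of these data known. Of 191 listed partner genes 170 were measured. Text names up to 4 called genes per list and comparison by smallest adjusted p, except that Npy1r was added with the receptors that fell, as were Th, Gnas, Gcg, Gip, Adcy6, Itpr3, Prkce and the other dopamine receptor genes, after their values were seen. Alternatives were other fits, scalings, filters and probe set choices, and leaving out each of the 20 arrays. For partner genes these were chosen after seeing the data.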

Additional observations from a re-analysis of the deposited data

Results flagged for a closer look

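In a group of 5 arrays a value was singled out when its gap to the next one exceeded 0.71 of the range of the group. Of 24 groups (6 receptor genes in 4 groups of arrays) 2 were, and chance gives about 1 in 20. Glp1r in Nr4a3 replicate 2 was 9.068 on the log2 scale, and the next array of that group had 10.51. Gcgr in Nr4a1 replicate 1 was 7.06, and the next had 7.617.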

How the results depend on the processing

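Of 24 receptor differences (6 genes, 4 comparisons), 11 kept direction and side of the threshold under every alternative run, among them Gipr and Drd2 for Nr4a1 against GFP and Gipr for Nr4a3 against GFP. Deviations of same-numbered arrays from their group means had r from -0.297 to 0.404 over the 4 comparisons. Arrays with different numbers were not compared, so these values do not settle whether the numbers pair the samples. With the replicate block 3, 1, 1 and 0 receptor genes were called in the comparisons Nr4a1 with GFP, Nr4a3 with GFP, Nr4a1 with Nr4a3 and GFP with untreated, as without it, and Drd2 for Nr4a1 against GFP stayed at 1.58. The block ended 6 calls of partner genes (Gnaq, Casr, Npy1r, Rasgrp3, Itpr1 and Rgs7 for Nr4a1) and that of Pde10a for Nr4a3. For Nr4a1 against GFP the count was 6 in a fit to only the 10 arrays compared and 5 with array weights. The share of all genes called was not determined with the replicate block, in the fit to 10 arrays or with array weights. The counts from these fits therefore cannot be read against it. For Nr4a1 against Nr4a3 the receptor count was 0 in the fit to 10 arrays (Drd2, limma adjusted p = 0.0832). It was also 0 with the dimmest 40% of genes left out, which removes Drd2 from the test. Leaving out single arrays gave 1 to 2 calls for Nr4a3 against GFP. Of these fits, only that without Nr4a3 replicate 2 has a share of all genes, 3.71%, beside 1 of 6 receptor genes.

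Signs turned only among differences that did not pass. With array weights Chrm3 was -0.064 for Nr4a1 against Nr4a3 and Glp1r -0.0085 for GFP against untreated. With the mean of all probe sets Adra2a was 0.062 and Chrm3 -0.023 for Nr4a1 against Nr4a3, and Chrm3 0.026 for GFP against untreated. With untreated arrays as control Chrm3 was -0.037 for Nr4a3. With single arrays left out, Nr4a1 minus Nr4a3 ran from -0.41 to 0.079 for Glp1r, from -0.12 to 0.084 for Adra2a and from -0.0396 to 0.20 for Chrm3. GFP minus untreated ran from -0.044 to 0.11 for Glp1r and from -0.029 to 0.10 for Gcgr, and Nr4a3 minus GFP from -0.0017 to 0.24 for Chrm3. The cause was not tested. Of 22 calls of partner genes, 10 held under all alternatives run, which for these genes were chosen after seeing the data. Without detection calls, signal over background is unknown.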
